A study of Mus musculus with 6 samples.

Results

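Collagen genes were followed in EpH4 cells, a mouse mammary epithelial line that forms polarised sheets. The set holds every gene whose symbol in the platform's probe table reads Col, a number, a and a number, apart from Col17a1, and comprised 40 of the 20848 genes measured. These 40 genes were covered by 1854 probe sets, from 3 for Col10a1 to 113 for Col7a1 (median 48). By the class of the protein they divided into 11 fibrillar genes, 9 network genes and 20 others. The others were 9 FACIT genes, 4 of the beaded filament type VI, 3 transmembrane, 2 multiplexin, the anchoring fibril gene Col7a1 and Col28a1. Another 3 collagen genes stand under older names in the probe table (Col6a4, Col26a1 and Col6a5) and were left out of the counts. Their differences were -0.04 (SE 0.10), -0.09 (SE 0.11) and -0.14 (SE 0.09) log2 units, or 0.05, 0.01 and -0.09 without the Vehicle 3 array.

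All samples came from monolayers that had been confluent for 7 days, with tight junctions formed, before 24 hours in serum-free medium. The 3 samples titled Vehicle received vehicle alone and the 3 titled TGF-β3 received TGF-β3 at 1 ng/ml. Each sample was 1 array with the RNA of 3 wells combined, and the labels speak of 3 experiments. EpH4 is 1 cell line, so the results describe these cells in culture, and a sheet with no stroma is a limited model of the gland. Nothing in the labels states how the experiments were separated, so the p-values measure the spread between these samples only. The titles carry the numbers 1, 2 and 3 in both groups, and a vehicle and a TGF-β3 sample with the same number are called a pair here.

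Collagens are secreted or membrane-bound proteins with a triple helix. Fibrillar collagens build the banded fibres of connective tissue, and type I, made of Col1a1 and Col1a2 chains, is the main one of skin and bone. Network collagens form sheets. Type IV is the collagen of the basement membrane on which mammary epithelium sits, and its chains are encoded by gene pairs that lie head to head on the chromosome (Col4a1 with Col4a2, Col4a3 with Col4a4, Col4a5 with Col4a6). FACIT collagens attach to the surface of fibrils, type VI forms beaded filaments, and type VII anchors the basement membrane to the tissue beneath. TGF-β is a widely studied inducer of collagen genes in fibroblasts, and the comparison asks which transcripts differ after TGF-β3 in an established epithelium.

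Values are log2 signals, the mean over a gene's probe sets on each array, and differences are given as TGF-β3 less vehicle on that scale. Array medians lay between 6.56 and 6.64. Signals on the Vehicle 3 array covered a narrower range (SD over genes 1.58, against 1.68 to 1.74 on the others). Differences of named genes that moved by over 1.5 times without it are given both ways. Detection calls were not used here. As a guide to background, 1195 genes of olfactory and vomeronasal receptors had a median signal of 4.37, a highest of 8.31 and a 95th percentile of 5.62. A signal above that percentile does not show that a gene is expressed. Of the 40 collagen genes 35 had a mean signal above that percentile, and Col5a2, Col8a2, Col19a1, Col24a1 and Col28a1 did not. Sorted by mean signal into 5 equal groups of all genes, Col1a1, Col1a2 and Col8a1 fell in the highest group, Col4a5, Col6a1 and Col12a1 in the next, and the other 34 below. The middle group, which spans 5.58 to 6.73 and so begins near the guide, held 31 of these 34. Probes respond unequally, so this sorting gives no order of transcript amounts between genes. The epithelial identity of the cells was visible in Cdh1, which encodes E-cadherin (10.08 to 10.27 over the 6 arrays), in Epcam (9.81 to 10.02) and in the keratin genes Krt8 (11.72 to 11.90) and Krt18 (11.36 to 11.50), while Krt19 (4.87 to 4.98) was not above the guide.

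No collagen gene differed between TGF-β3 and vehicle at an adjusted p under 0.05 (limma with Benjamini-Hochberg adjustment over all genes, 0 of 40). The same held for all 20848 genes, of which 0% passed. With the sample number as a block 0 of 40 collagen genes and 2 genes in all passed, or 0.00959%. At an unadjusted p under 0.05, Col4a2 and Col6a3 were lower (2 of 40 members against 2.13% of all genes) and no member was higher (3.03% of all genes). The differences lay between -0.23 for Col14a1 and 0.16 for Col1a1. The 95% interval stayed within 2-fold for all 40 genes and within 1.5-fold for 39, with Col1a1 the exception, and its median half-width was 0.22. By sign alone, 32 collagen genes were lower and 8 higher, with a median of -0.079. Over all genes 47.2% were lower and the median was 0.011. Within pairs 1, 2 and 3 the collagen median was -0.029, 0.003 and -0.186, with 26, 20 and 34 of the 40 genes lower. Col4a5, Col6a1 and Col12a1 were higher in all 3 pairs and 14 genes were lower in all 3, while of the 20848 genes 5003 were higher and 3762 lower in all 3. Without the Vehicle 3 array the median of all 40 was -0.019, with 25 lower and 15 higher. Of the 1854 single probe sets 1077 were lower and 777 higher (median -0.063, against 0.031 over 213361 probe sets). The medians of the classes were close to each other, at -0.051 for fibrillar, -0.043 for network and -0.087 for other collagens, and their differences were not tested.

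**Figure D1:**
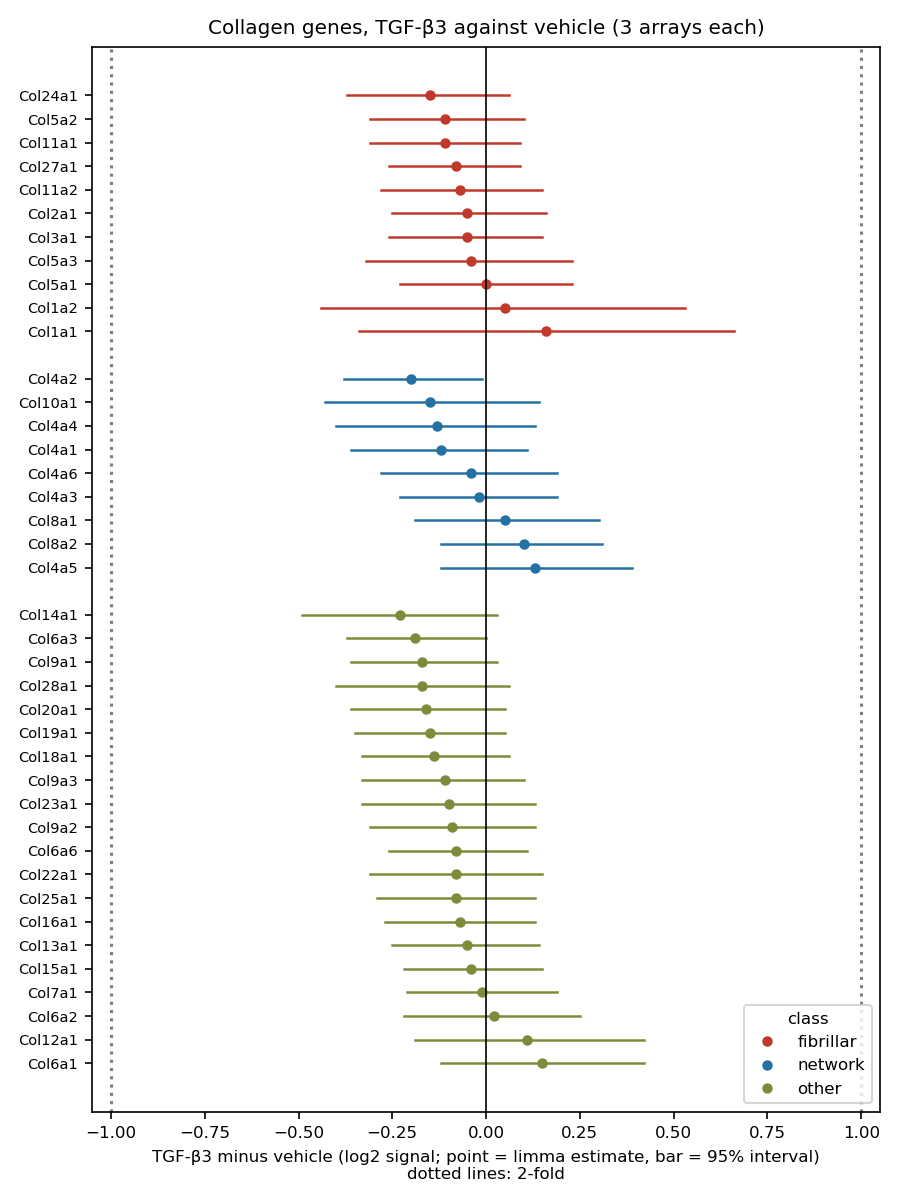
TGF-β3 minus vehicle in log2 signal (horizontal axis) for each of the 40 collagen genes (vertical axis), grouped and coloured by class, with 3 arrays per group. Points are the limma estimates, bars their 95% intervals, dotted lines mark 2-fold, and every interval lies inside 2-fold.

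Among the fibrillar genes, type I collagen had the widest spread between samples. Col1a1, the α1 chain of type I, had signals of 8.59, 9.14 and 9.46 in vehicle samples 1, 2 and 3 and of 8.84, 9.40 and 9.43 in the TGF-β3 samples of the same numbers. It was higher in pairs 1 and 2 and close to equal in pair 3, and the groups overlapped. The difference of 0.16 (SE 0.22, 95% interval -0.34 to 0.66, adjusted p = 0.771) was 1.12-fold. Without the Vehicle 3 array it was 0.36 log2 units. Col1a2, the α2 chain, had signals of 8.21, 8.74 and 8.93 in vehicle and of 8.23, 8.85 and 8.92 in TGF-β3. The groups overlapped almost wholly, with a difference of 0.05 (SE 0.22, 95% interval -0.44 to 0.53, adjusted p = 0.93; 0.20 without Vehicle 3). In the fit with the block the interval of Col1a1 was -0.03 to 0.36 and that of Col1a2 -0.12 to 0.22, neither past the threshold (adjusted p = 0.43 and 0.743). For Col1a1, 46 of its 52 probe sets (88.5%) were higher in TGF-β3 and 6 lower, and for Col1a2 33 of 52 (63.5%) were higher. Of all 213361 probe sets 120405 were higher. In the upper 2 signal groups 88.4% of all genes were higher, which is a share of genes and not of probe sets. The share among probe sets of like signal was not computed. Probe sets of 1 gene share the same RNA and are not replicates.

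The other 9 fibrillar genes were all lower by sign, from -0.15 for Col24a1 to -0.00 for Col5a1, a chain of type V collagen (0.04 without Vehicle 3). Col3a1, whose chain makes type III fibrils beside type I, had signals of 5.97, 5.84 and 6.12 in vehicle and of 5.88, 5.97 and 5.93 in TGF-β3. It was lower in pairs 1 and 3 and higher in pair 2 (difference -0.05, SE 0.09; 0.02 without Vehicle 3). Col5a2, another chain of type V, which lies in the core of type I fibrils, differed by -0.11 (SE 0.09; -0.03 without Vehicle 3). Col11a1, a fibrillar chain of cartilage, differed by -0.11 (SE 0.09; -0.06 without Vehicle 3) and Col27a1, also a cartilage fibrillar collagen, by -0.08 (SE 0.08; -0.05 without Vehicle 3). Col24a1, a minor fibrillar chain, was the member of this class whose groups did not overlap, with 5.57, 5.63 and 5.87 in vehicle and 5.56, 5.51 and 5.55 in TGF-β3. Its lowest vehicle value and its highest TGF-β3 value differed little, and its difference was -0.15 (SE 0.10, adjusted p = 0.684; -0.06 without Vehicle 3). Without the Vehicle 3 array, in which 9 of the 11 fibrillar genes had their highest signal, the class median was 0.005, and with array weights it was 0.036.

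Network genes went in both directions, 3 higher and 6 lower, and their median of -0.043 was -0.028 without Vehicle 3. Col4a2, the α2 chain of the type IV network found in most basement membranes, had signals of 5.83, 5.84 and 5.99 in vehicle and of 5.72, 5.63 and 5.71 in TGF-β3. All 3 TGF-β3 samples were below all 3 vehicle samples. The difference was -0.20 (SE 0.08, 95% interval -0.38 to -0.01), short of the threshold after adjustment (adjusted p = 0.684; 0.404 with the block). It was -0.14 without the Vehicle 3 array, and 33 of its 48 probe sets were lower, against 92956 of all 213361. Col4a1, which supplies the α1 chain of the same network, had 6.02, 5.83 and 6.21 in vehicle and 5.95, 5.90 and 5.84 in TGF-β3. It was lower in pairs 1 and 3 and higher in pair 2, and the difference of -0.12 (SE 0.11) was -0.03 without Vehicle 3.

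The type IV chains of more restricted membranes also did not pass. Col4a3 and Col4a4, chains best known from the kidney glomerulus, differed by -0.02 (SE 0.09) and -0.13 (SE 0.12). Both were highest in Vehicle 3, without which they differed by 0.07 and -0.01. Col4a5 had signals of 7.66, 7.36 and 7.31 in vehicle and of 7.68, 7.46 and 7.59 in TGF-β3. It was higher in all 3 pairs, most in pair 3, while the groups overlapped (difference 0.13, SE 0.11, adjusted p = 0.686; 0.07 without Vehicle 3). Its neighbour Col4a6 had 6.42, 6.40 and 6.44 in vehicle and 6.42, 6.16 and 6.55 in TGF-β3, a difference of -0.04 (SE 0.10).

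Among the short-chain network collagens, Col8a1, a type VIII chain of endothelial and subepithelial membranes, had 10.37, 10.48 and 10.12 in vehicle and 10.36, 10.49 and 10.28 in TGF-β3. Pairs 1 and 2 were level to within 0.01, and the difference was 0.05 (SE 0.11, 95% interval -0.19 to 0.30; -0.05 without Vehicle 3). Its partner chain Col8a2 differed by 0.10 (SE 0.09). Col10a1, the collagen of hypertrophic cartilage, differed by -0.15 (SE 0.13) on 3 probe sets, and by -0.03 without Vehicle 3.

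Of the 20 other collagens 17 were lower and 3 higher, and without Vehicle 3 the median was -0.023. Type VI, a filament collagen found around most cells, is assembled from Col6a1, Col6a2 and Col6a3 chains, and the signs of their estimates differed. Col6a1 had 7.12, 7.30 and 7.48 in vehicle and 7.25, 7.55 and 7.57 in TGF-β3, higher in all 3 pairs, with overlapping groups (difference 0.15, SE 0.12; 0.24 without Vehicle 3). Col6a2 differed by 0.02 (SE 0.11; 0.11 without Vehicle 3). Col6a3 had 6.0, 6.06 and 6.13 in vehicle and 5.91, 5.81 and 5.91 in TGF-β3. Its groups did not overlap, and the difference of -0.19 (SE 0.08, adjusted p = 0.684; 0.406 with the block) was -0.15 without Vehicle 3. Col6a1 lay in the upper 2 signal groups, where 88.4% of all genes were higher, and Col6a2 and Col6a3 in the middle group. With the brightest probe set Col6a1 and Col6a2 were lower, as given in the closing section. Whether the 3 chains differed from each other in response was not tested.

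The FACIT genes, 8 lower and 1 higher, had a median of -0.113. Without Vehicle 3 this median was -0.061, with 6 lower and 3 higher. The FACIT gene higher with all arrays was Col12a1, a fibril-associated collagen of dense connective tissue. It had 7.08, 7.41 and 7.30 in vehicle and 7.11, 7.60 and 7.42 in TGF-β3, a difference of 0.11 (SE 0.14). Col14a1, a related fibril-associated chain, had the lowest estimate of all 40 genes. Its signals were 5.75, 5.95 and 6.21 in vehicle and 5.67, 5.76 and 5.78 in TGF-β3, and the groups overlapped. The difference of -0.23 (SE 0.12, adjusted p = 0.684; 0.404 with the block) was -0.11 without Vehicle 3. Col9a1, a type IX chain of cartilage, had 6.24, 6.29 and 6.46 in vehicle and 6.13, 6.22 and 6.14 in TGF-β3, which do not overlap (difference -0.17, SE 0.09; -0.10 without Vehicle 3). Col19a1, a fibril-associated chain, differed by -0.15 (SE 0.09). Col7a1, the anchoring fibril collagen, had 6.58, 6.66 and 6.81 in vehicle and 6.60, 6.71 and 6.71 in TGF-β3, a difference of -0.01 (SE 0.09; 0.05 without Vehicle 3). Col18a1, a basement membrane collagen whose end fragment is endostatin, differed by -0.14 (SE 0.09; -0.08 without Vehicle 3) and was lower in all 3 pairs.

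In all, the groups did not overlap in 4 of the 40 genes, all lower in TGF-β3 (Col4a2, Col6a3, Col9a1 and Col24a1). Over all genes this was so for 6.05% in the lower direction, and for 6.84% in the higher direction, where no collagen gene was found. Of the 1195 receptor genes of the background guide, 169 did not overlap in the lower direction and 4 in the higher. The 4 collagen genes had mean signals of 5.79, 5.97, 6.25 and 5.61, where the guide is 5.62. With the block, Col4a2, Col6a3 and Col14a1 had an unadjusted p under 0.05, all lower, against 5.34% of all genes in that direction.

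**Figure D2:**
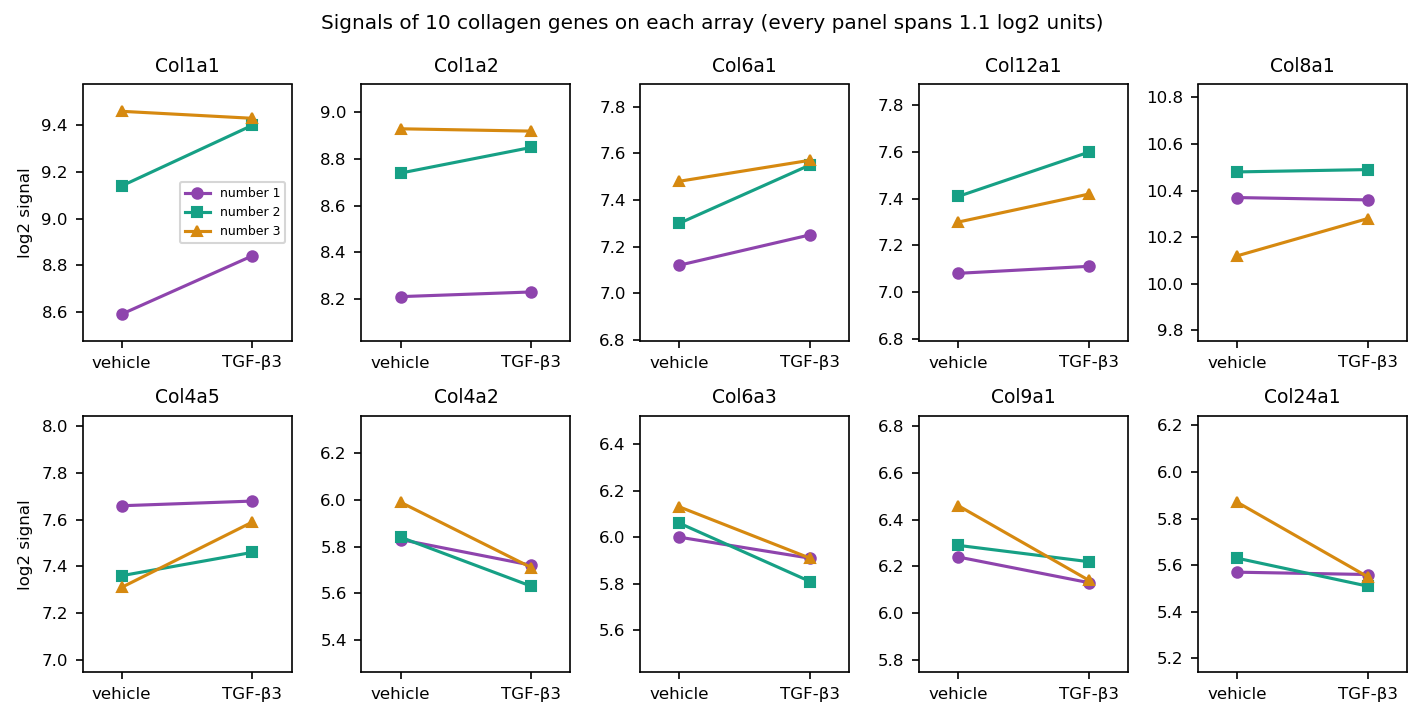
Log2 signal (vertical axes, each spanning 1.1 log2 units) of 10 collagen genes in vehicle and TGF-β3 samples, with lines joining samples of the same number. Number 1 (circles) lies lowest in Col1a1, Col1a2, Col6a1 and Col12a1 under both treatments, and the 4 genes at the lower right are those whose groups do not overlap.

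The sign of a collagen gene's difference followed its mean signal. All 6 members in the upper 2 signal groups were higher in TGF-β3 (Col1a1, Col1a2, Col8a1, Col4a5, Col6a1 and Col12a1, between 0.05 and 0.16), and 32 of the 34 members below were lower. Genes as a whole showed the same relation. In the upper 2 groups 88.4% of all genes were higher, and in the lower 3 groups 70.9% were lower. The median of all genes from the lowest to the highest group was -0.081, -0.081, 0.011, 0.115 and 0.084. In the middle group, which held 31 collagen genes, 29 of these were lower (median -0.083) against 47.6% of all genes in that group. The 1195 receptor genes of the background guide were also mostly lower (92.3%, median -0.116). The Vehicle 3 array moved with this relation. On it the genes of the lowest 2 groups lay on average 0.13 and 0.14 above their mean over the 6 arrays, and those of the highest 2 groups 0.16 below it. Vehicle 3 held the highest signal of 30 of the 40 collagen genes, against 31.6% of all genes and 72.3% of the receptor genes. Without it 10 of the 34 members of lower signal were higher and 24 lower, and 5 of the 6 members of higher signal were higher. Quantile normalization left 33 of the 40 genes lower, beside 10986 of all 20848 genes and 1072 of the 1195 receptor genes. The part of this array's signal range in the collagen differences was not tested beyond these values.

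**Figure D3:**
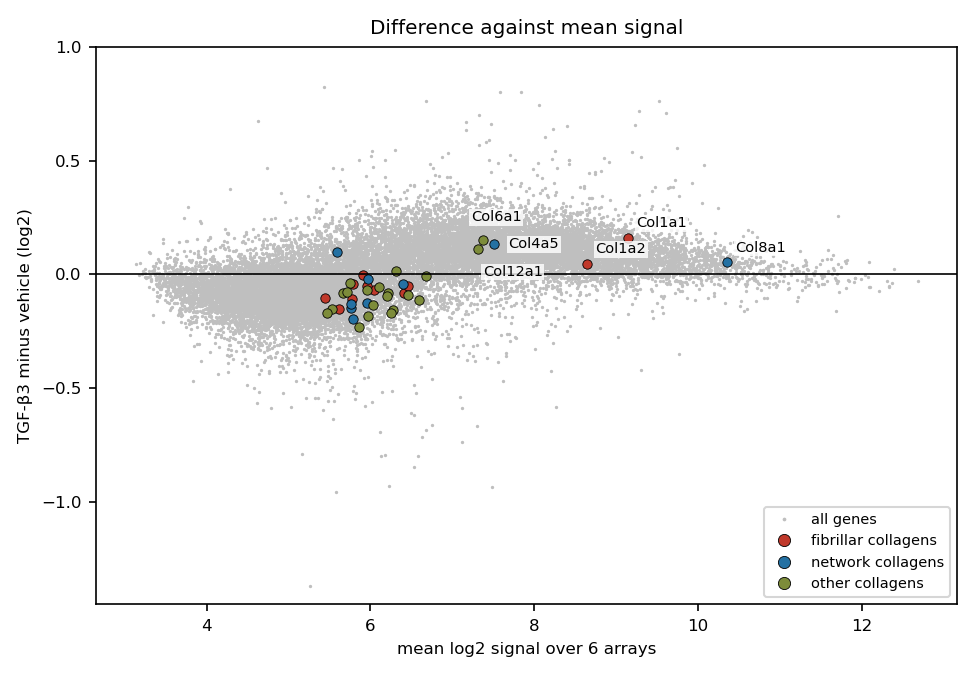
TGF-β3 minus vehicle (log2, vertical axis) against mean log2 signal over the 6 arrays (horizontal axis) for all 20848 genes (grey) and the 40 collagen genes, coloured by class. The 6 named collagen genes of higher signal lie above 0 and 32 of the other 34 below. Most genes lie above 0 in the upper 2 signal groups and below 0 in the lowest 2. In the middle group, which holds 31 collagen genes, 47.6% of all genes lie below 0.

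The type I collagen genes differed between the numbers in the titles, whichever treatment the cells received. Col1a1 and Col1a2 passed this test (limma F-test in a fit with number and treatment, adjusted p = 0.0266 and 0.0168). These were 2 of the 40 collagen genes, beside 1.18% of all genes. Both were lowest in number 1. The mean of the 2 samples of a number was 8.71, 9.27 and 9.44 for Col1a1 and 8.22, 8.80 and 8.93 for Col1a2. Number 3 exceeded number 1 by 0.73 (SE 0.11, adjusted p = 0.0129) in Col1a1, a 1.66-fold difference, and by 0.70 (SE 0.09, adjusted p = 0.00939) in Col1a2, a 1.63-fold difference. Numbers 2 and 3 were not separated in either gene (0.18, SE 0.11 and 0.13, SE 0.09). Each sample of number 1 lay below every sample of numbers 2 and 3 in both genes.

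The same order was seen across the probe sets of both genes. Number 1 was below the mean of numbers 2 and 3 in 51 of 52 probe sets of Col1a1 (median -0.64, range -1.20 to 0.06) and in 52 of 52 of Col1a2 (median -0.61, range -1.54 to -0.09). It was the lowest number within both treatments in 48 and 42 of them. The 2 calls were lost when each gene was represented by its median probe set (adjusted p = 0.15 and 0.124) or its brightest (0.321 and 0.315). Without the Vehicle 1 array neither passed (adjusted p = 0.181 and 0.0898), and without TGF-β3 1 Col1a1 passed and Col1a2 did not (0.0329 and 0.0696). The labels do not say what a number stands for, so experiment, day and handling cannot be told apart.

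**Figure D4:**
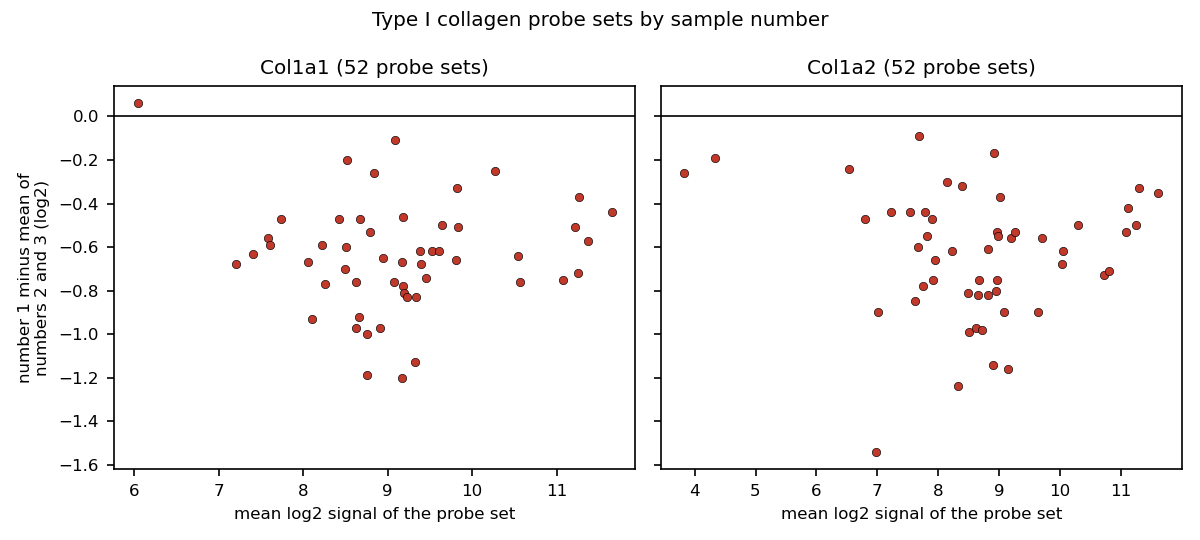
Number 1 minus the mean of numbers 2 and 3 (log2, vertical axis) against mean log2 signal (horizontal axis) for each of the 52 probe sets of Col1a1 and the 52 of Col1a2, vehicle and TGF-β3 samples averaged. All points but 1 lie below 0, over the whole range of signals.

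Col12a1 and Col6a1 came next by this test and did not pass (adjusted p = 0.147 and 0.219). With array weights Col12a1 passed (adjusted p = 0.00933), and both passed when the array TGF-β3 3 was left out, which leaves its number in 1 group only. In both settings far more genes passed in all than the 246 called here, and the counts are given in the closing section. Col12a1 averaged 7.09, 7.50 and 7.36 in numbers 1, 2 and 3, and Col6a1 7.19, 7.42 and 7.52, so number 1 was again the lowest. The network genes of higher signal did not have their lowest mean in number 1. Col4a5 averaged 7.67, 7.41 and 7.45 (adjusted p = 0.328) and Col8a1 10.36, 10.49 and 10.20 (adjusted p = 0.302). Among the 246 genes called between numbers, number 1 was highest within both treatments in 178 and lowest in 54, so type I collagen stood with the smaller share.

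The bases before the start of Col1a2 are shown as a description, and any link to the difference between numbers was not tested. The RefSeq promoter table (GRCm38.p6) held 32 of the 40 genes with 35 start sites, and Col1a1 was not among them. The 250 bases are chr6:4505368-4505617 on the plus strand, 5′ to 3′, and capitals mark every match to the motifs searched.
Col1a2: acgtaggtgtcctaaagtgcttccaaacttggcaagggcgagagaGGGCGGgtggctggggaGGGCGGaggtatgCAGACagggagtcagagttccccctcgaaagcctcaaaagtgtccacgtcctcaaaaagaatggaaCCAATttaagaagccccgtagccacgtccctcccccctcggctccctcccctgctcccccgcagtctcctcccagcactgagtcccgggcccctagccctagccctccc
The search covered CCAAT (or ATTGG), the box of the factor NF-Y, CAGAC (or GTCTG), the short SMAD-binding letters, and GGGCGG (or CCGCCC), the letters of SP1, on both strands. No motif overlaps another in this window. It holds CCAAT once, starting at base -109 from the start, CAGAC once at -175 and GGGCGG at -205 and -188. Of 32851 promoters of this length 33.8% hold the first motif, 42.2% the second and 32.7% the third, and of the 35 collagen promoters 31.4%, 48.6% and 57.1%. Of the pair Col4a1 and Col4a2, CAGAC was found before the start of Col4a2 and not before that of Col4a1, CCAAT before both, and GGGCGG before Col4a2. Their starts lie so close that the first 22 bases of the transcripts overlap on opposite strands. A match describes letters only and shows no binding.

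Genes that make, process and bind collagen were taken from lists of 55 genes, of which 54 were measured. By sign 34 were higher and 20 lower, with a median of 0.036 (0.023 without Vehicle 3), and 0 of 54 passed in either fit. Over all genes 52.8% were higher, with a median of 0.011. The groups did not overlap in 6 of the 54 in the higher direction (Mia3, Sec24d, Colgalt1, Loxl3, Itga2 and Mmp13). In the lower direction there were 2 (Tll2 and Itga1). Over all genes the shares were 6.84% higher and 6.05% lower. In the upper 2 signal groups 1064 of 8339 genes did not overlap in the higher direction. Of the 54 genes 26 lay in the upper 2 signal groups and 23 of these were higher, where 88.4% of all genes were. The 6 chaperone and export genes were all higher by sign (median 0.153; 0.075 without Vehicle 3), and all 6 lay in the upper 2 signal groups, where the median of all genes was 0.099. Mia3, which encodes the TANGO1 protein that loads procollagen into transport vesicles, had 7.82, 7.80 and 7.56 in vehicle and 7.94, 7.93 and 7.97 in TGF-β3. The groups did not overlap, and the difference was 0.22 (SE 0.09, adjusted p = 0.684; 0.14 without Vehicle 3). Sec24d, a vesicle coat gene, differed by 0.17 (SE 0.08).

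Of 14 hydroxylase, isomerase and glycosyltransferase genes 9 were higher and 5 lower (median 0.046). Without Vehicle 3 their median was 0.001, with 7 higher and 7 lower. Plod2, a lysyl hydroxylase that prepares crosslinks, differed by 0.22 (SE 0.15; 0.05 without Vehicle 3) and Colgalt1, a collagen galactosyltransferase, by 0.13 (SE 0.09; 0.05 without Vehicle 3). Of 8 propeptide processing genes 3 were higher, with the metalloprotease genes Tll1 and Tll2 at -0.16 (SE 0.09) and -0.09 (SE 0.08), or -0.08 and -0.03 without Vehicle 3. Among 6 crosslinking genes 4 were higher. Loxl3, a lysyl oxidase, had 6.71, 6.49 and 6.64 in vehicle and 6.86, 6.77 and 6.93 in TGF-β3, with no overlap, and differed by 0.24 (SE 0.09, adjusted p = 0.684). Pxdn, peroxidasin, which crosslinks type IV collagen, differed by 0.20 (SE 0.10).

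Of 8 measured receptor genes 6 were higher. The integrin genes Itga2 and Itga1, whose products bind collagen with the β1 subunit, differed by 0.16 (SE 0.09) and -0.15 (SE 0.09), or 0.09 and -0.07 without Vehicle 3. Of 7 collagen-binding proteoglycan genes 3 were higher, with Fmod at 0.13 (SE 0.08) and Kera at -0.16 (SE 0.10). Of 5 genes of proteases that cleave collagen 3 were higher. Mmp13, a collagenase, had 5.78, 5.70 and 5.78 in vehicle and 6.54, 6.09 and 6.19 in TGF-β3, and Mmp9, a gelatinase, differed by 0.29 (SE 0.13). The Mmp13 groups were well separated, yet its difference of 0.52 (SE 0.12) missed the threshold (adjusted p = 0.684; 0.252 with the block).

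Markers of cells that make collagen in tissue were set beside these values. The summed log2 signal of 10 fibroblast markers was 62.4 to 63.1 in vehicle and 62.5 to 62.6 in TGF-β3, and 5 of the 10 lay above the background guide. By sign 4 of the 10 were higher in TGF-β3 and 6 lower, with Pdgfrb the highest at 0.28 (SE 0.14, adjusted p = 0.684). Dcn (4.24 to 4.43), Lum (4.24 to 4.57) and Fap (4.38 to 4.57) had signals near the median of the receptor genes on every array. Postn, by contrast, was at 11.26 to 11.39. By number, Pdgfrb was lowest in number 1 with means of 8.31, 8.76 and 8.59 (adjusted p = 0.114), while Pdgfra (6.98, 6.64 and 6.82, adjusted p = 0.25) and Twist2 (6.31, 6.10 and 6.12, adjusted p = 0.396) were highest in number 1. The 10 epithelial markers summed to 96.0 to 97.0 in vehicle and to 96.1 to 97.1 in TGF-β3. Of these 10, Ovol1, an epithelial transcription factor gene, was the one that passed between numbers, with 6.51, 5.88 and 6.05 (adjusted p = 0.0311), highest in number 1. Others were ordered differently, such as Esrp1 (10.09, 10.28 and 10.11) and Cdh1 (10.24, 10.27 and 10.12). Of the endothelial markers 0 of 5, of the pericyte and smooth muscle markers 2 of 5 and of the leukocyte markers 3 of 5 were above the guide. Csf1r, a leukocyte marker, was lowest in number 1 too, at 6.57, 7.00 and 6.97 (adjusted p = 0.0903). Between treatments it differed by 0.36 (SE 0.15, adjusted p = 0.684), while 3 of the 5 leukocyte markers were lower in TGF-β3. In bulk RNA, fewer cells of a type and less RNA per cell cannot be told apart, and the part of other cell types in the type I difference was not tested.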

How the data were processed

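RMA in Affymetrix Power Tools produced the table, per the submitters' processing notes; no version or annotation build is given in the sources used here. Log2 signals were deposited by the authors for 241576 probe sets on 6 arrays of a mouse whole-transcript platform, and the values (2.96 to 13.07) fit that scale. The 213361 probe sets with 1 symbol in the platform's table were averaged per gene and array, with older symbols updated through the RefSeq gene table. The 4 probe sets shared by a collagen gene and another gene were left out, and near-identical genes may share probes. Genes of low signal were kept.

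TGF-β3 and vehicle were compared over all 20848 genes with limma 3.58.1 (R 4.3.3), using lmFit, eBayes and Benjamini-Hochberg adjustment at a threshold of 0.05, with no block. A fit of number and treatment gave the F-test between sample numbers. The number of arrays limits the precision. The titles' numbers were taken as pairs because deviations of same-numbered samples from their group mean had correlations of 0.62, 0.41 and 0.22. Samples of different numbers had -0.49 to 0.17, the highest for vehicle 3 with TGF-β3 2, so pair 3 stands out little. The pairing was judged before the fits' calls were compared, and the labels do not state it. The scripts were tested on simulated data.

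Members, classes and lists were chosen with earlier results of these data known. The genes named are a fixed set of 16 collagens, the 4 of smallest p per class, those whose groups do not overlap, the 4 of smallest p between numbers and the 2 of smallest p per list of related genes. Col8a1, Col8a2, the 3 genes with older names, the single markers and the promoter of Col1a2 were chosen after their values were seen. Alternatives were the block, quantile normalization, median centring, the median or brightest probe set, each probe set alone, array weights, robust eBayes with a trend, a low-signal filter and leaving out arrays. Protein sequences were not used here. Summaries used pandas 2.3.3 in Python 3.11.15, and plots used matplotlib 3.10.9.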

Additional observations from a re-analysis of the deposited data

How the results depend on the processing

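Collagen genes called for TGF-β3 numbered 0 under every alternative run, and none of the 38 named genes passed in any. With the sample numbers as pairs (replicate block) 2 genes were called in all, and 1 with the block and quantile normalization together. Leaving out each array in turn gave 0 to 1. The block changed no call of a named gene. The network median was -0.149 with the brightest probe set.

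Counts between sample numbers depended on the setting, and the causes were not tested. Over all genes they were 1748 with array weights, 0 with the brightest and 9 with the median probe set, 3 for number 2 against 3, and 136 (without Vehicle 1) to 4213 (without TGF-β3 3) leaving out each array. Among collagen genes they were 0 with the brightest and 0 with the median probe set, 1 for number 1 against 2, 0 for number 2 against 3, and 0 (without Vehicle 1) to 8 (without TGF-β3 3). Col12a1 passed with array weights (adjusted p = 0.00933) and without TGF-β3 3 (0.0314), where Col6a1 passed too (0.044).

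Of 605 differences under alternatives 35, in 15 genes, changed sign, none of them past the test. With array weights Col3a1 was 0.039, Col4a3 0.036, Col4a4 0.003, Col5a1 0.102 and Col7a1 0.021. With the brightest probe set Col12a1 was -0.140, Col4a5 -0.149, Col6a1 -0.168, Col6a2 -0.137 and Fmod -0.039. With the median probe set Col1a2 was -0.054, Col5a1 0.193 and Tll2 0.005. Col6a2 was -0.031 with median centring and -0.013 with quantile normalization, with or without the block. Without both arrays numbered 3 Col3a1 was 0.018, Col4a1 0.001, Col4a3 0.061, Col5a1 0.034 and Col7a1 0.036. Leaving out each array, Col1a1 ranged from -0.076 to 0.360, Col1a2 from -0.161 to 0.265, Col3a1 from -0.120 to 0.019, Col4a3 from -0.073 to 0.068, Col4a6 from -0.127 to 0.064, Col5a1 from -0.094 to 0.055, Col6a2 from -0.086 to 0.110 and Col7a1 from -0.060 to 0.053. Leaving out 1 array leaves its number in 1 group only. The omission of both arrays numbered 3 and the block with quantile normalization were chosen after seeing the data. For 5 collagen genes the mean over probe sets was not above the background guide, though each had single probe sets above it. Conversely, Col4a2, Col10a1, Col11a1 and Col15a1 were above the guide of 5.62 by their mean. Their median probe sets were below it, at 5.52, 4.97, 5.46 and 5.43.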
